A study of Mus musculus with 228 samples.

Results

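The genes described here are 10 chemokine genes, Ccl2, Ccl3, Ccl4, Ccl5, Ccl12, Cxcl9, Cxcl10, Cxcl13, Cxcl16 and Cx3cl1, out of 22870 gene rows of a count table of mouse hippocampal neurons. They were chosen by their measured levels in the Ascl4 and GFP groups of these same cells, so those levels are given as a description, without a test. RNA was drawn through the patch pipette from 1 neuron at a time in acute slices of the ventral hippocampus, and each neuron gave 1 sequenced library. Dentate granule cells (GC) came from Calb1-Cre mice and CA1 pyramidal cells from Nex-Cre mice, all 3 to 4 months old and with cells taken 1 month after virus injection. Control cells (GFP GC and GFP CA1) had received a Cre-dependent AAV-EGFP alone, and the experimental cells (Ascl4 GC and Ascl4 CA1) had received that virus together with AAV-Ascl4, carrying a transcription factor of the basic helix-loop-helix family. The controls had no second virus, so the Ascl4 protein and the added vector cannot be told apart, and the Cre line cannot be told apart from the cell type. After the authors' quality control there were 47 control and 51 Ascl4 granule cells and 46 control and 45 Ascl4 CA1 cells. Neither animals nor cultures nor batches are named for the cells, so each group counts as 1 sample, and no difference between groups has a replicate check.

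Chemokines are small secreted proteins that steer the movement of leukocytes by binding receptors coupled to G proteins, and they are classed by the spacing of their first cysteines into CC, CXC and CX3C ligands. In the healthy brain most of them are made at low level, and microglia, the resident macrophages, make many of them when activated, while the membrane-anchored Cx3cl1 is made by neurons and read by microglia through Cx3cr1. Cxcl9 and Cxcl10 are classical targets of interferon signalling, and several CC ligands are targets of NF-kB.

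Each cell held between 1077532 and 25442664 counted reads, and levels are given as counts per 1000000 counted reads (CPM), either of a cell or of the summed reads of a group. Ascl4 itself, the check of the labels, reached 14111 CPM in the summed reads of Ascl4 GC and 9395 CPM in Ascl4 CA1, against 47.2 CPM in GFP GC and 32.6 CPM in GFP CA1. Its lowest Ascl4 cells, 182.9 CPM in GC and 23.2 CPM in CA1, lay under the highest GFP cells, 221.7 and 153.2 CPM. Every cell held the neuronal gene Snap25 at 10 CPM or more. The summed level of 8 granule cell markers was 2671 and 2330 CPM in the GC groups and 631 and 1149 CPM in the CA1 groups, and that of 8 CA1 markers was 68.4 and 25.5 CPM in the GC groups and 1974 and 1339 CPM in the CA1 groups. Counting intervals cover counting error only, since no source used here says that PCR copies were marked by molecular identifiers. Exact binomial intervals of shares treat cells as independent draws. They cover no spread between animals or batches and are no test between groups.

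The genes lie in a few clusters on chromosomes 5 and 11. Ccl3 and Ccl4 are 13.2 kb apart on chromosome 11, Ccl5 ends 117.3 kb before Ccl3, and Ccl2 and Ccl12 are 64.4 kb apart. Cxcl9 and Cxcl10 are 18.6 kb apart on chromosome 5, with Cxcl13 further along the same chromosome. Cxcl16 is on chromosome 11 and Cx3cl1 on chromosome 8. RefSeq's table of promoters (build GRCm38.p6) matched 6 of the 10 genes. The 250 bases before the start site of 4 of them are printed from 5′ to 3′, because these genes were higher in the Ascl4 cells of both types, and because they differ in the motifs that they hold. Capitals mark every match to an interferon-stimulated response element (ISRE, the letters GAAA, any 2 bases, then GAAA), a gamma-activated site (GAS, TTCNNNGAA), an NF-kB motif, the E-box CAGCTG and, on the gene's own strand, the TATA box TATAAA. The other motifs were sought on both strands, and the NF-kB matches of Cxcl10 nearest its start overlap each other.
Cxcl10, chr5:92348890-92349139, minus strand: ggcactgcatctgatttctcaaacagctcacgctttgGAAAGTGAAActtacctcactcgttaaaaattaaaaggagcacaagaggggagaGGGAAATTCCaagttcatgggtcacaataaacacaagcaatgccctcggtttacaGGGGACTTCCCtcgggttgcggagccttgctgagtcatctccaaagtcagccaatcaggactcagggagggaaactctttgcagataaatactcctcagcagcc
Cxcl13, chr5:95956689-95956938, plus strand: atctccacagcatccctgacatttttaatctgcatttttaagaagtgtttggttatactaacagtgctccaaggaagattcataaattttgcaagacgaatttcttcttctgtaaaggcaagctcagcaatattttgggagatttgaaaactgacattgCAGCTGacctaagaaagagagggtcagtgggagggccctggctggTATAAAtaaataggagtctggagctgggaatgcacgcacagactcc
Ccl12, chr11:82101595-82101844, plus strand: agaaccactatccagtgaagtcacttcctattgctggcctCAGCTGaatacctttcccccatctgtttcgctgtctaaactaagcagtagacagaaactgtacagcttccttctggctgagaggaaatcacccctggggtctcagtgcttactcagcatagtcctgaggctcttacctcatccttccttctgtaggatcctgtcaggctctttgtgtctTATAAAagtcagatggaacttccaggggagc
Ccl3, chr11:83649379-83649628, minus strand: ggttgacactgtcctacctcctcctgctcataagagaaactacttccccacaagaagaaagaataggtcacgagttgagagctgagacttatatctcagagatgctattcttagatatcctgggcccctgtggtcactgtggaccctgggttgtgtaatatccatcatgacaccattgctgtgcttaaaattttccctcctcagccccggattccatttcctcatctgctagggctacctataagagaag

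The Cxcl10 window held 1 ISRE and, closer to the start, NF-kB matches at separate places. The windows of Cxcl13, Ccl12 and Cxcl9 each held 1 CAGCTG and 1 TATAAA, and that of Ccl3 held none of the motifs. Of 32851 mouse promoter windows of the same length, 2.98% held the ISRE, 7.02% the GAS, 7.25% the NF-kB motif, 13% the E-box and 7.59% the TATA box. A match is a string of letters and says nothing of whether a factor was bound.

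The first comparison set Ascl4 against GFP granule cells. In the summed reads, 9 of the 10 chemokines were at least 2-fold higher in Ascl4 GC beside 22.5% of the 13297 genes with at least 1 CPM in 1 of the groups, and none was 2-fold lower, beside 22%. The ratio was taken as log2 of CPM with 1 CPM added to both, and the exception was Cx3cl1. The median log2 ratio was 3.01 over the 10 chemokines and -0.03 over all genes. By the share of cells with 10 CPM or more, 6 of 10 chemokines were at least 10 percentage points higher, beside 9.68% of all genes, and none 10 points lower, beside 8.79%. In CA1 cells, 8 of the 9 chemokines that reached 1 CPM were at least 2-fold higher with Ascl4, beside 21.1% of 14127 genes, and none was 2-fold lower, beside 17.3%. Their median log2 ratio was 3.50 against 0.03. There, 6 of the 9 were at least 10 percentage points higher by share of cells, beside 13.1% of all genes, and none 10 points lower, beside 8.08%. The genes were chosen with these contrasts known, so nothing is read from the distance between their counts and the background.

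**Figure D1:**
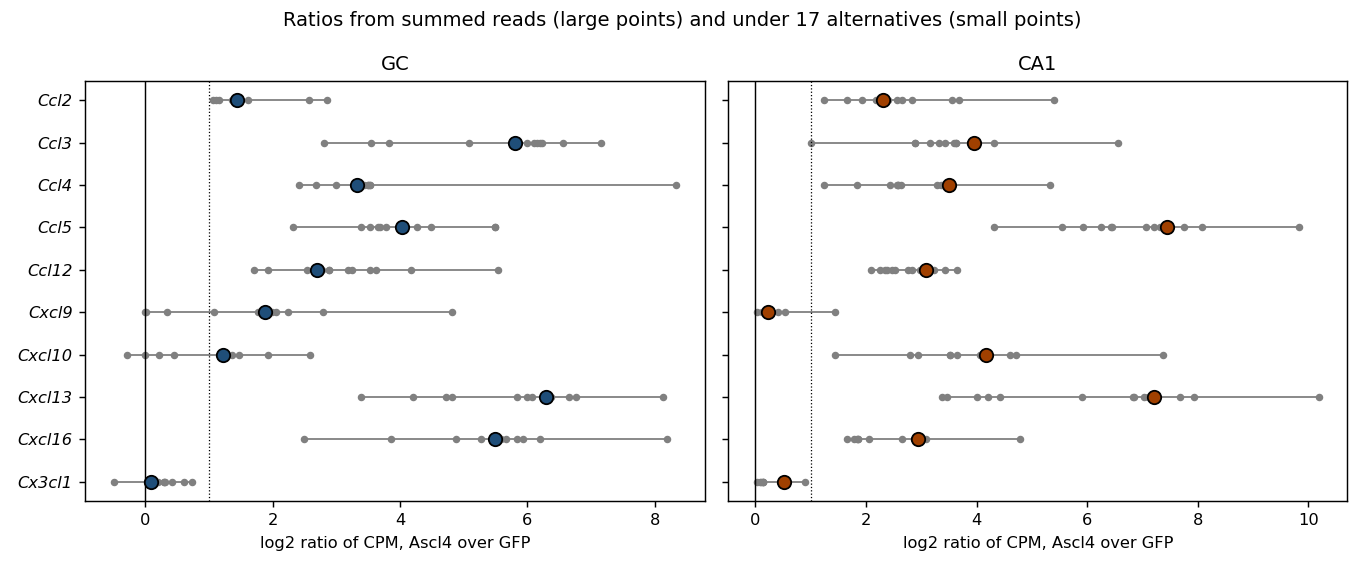
Log2 ratio of CPM, Ascl4 over GFP, for each chemokine in GC (left) and CA1 (right); large points are from summed reads, small points are 17 other ways of computing it, the grey line spans them and the dotted line is 2-fold. Ccl5 and Cxcl13 reach log2 ratios of 7.44 and 7.20 in CA1, while Cx3cl1 is at 0.09 in GC and 0.51 in CA1.

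Ccl3 and Ccl4, which attract macrophages and T cells, were, with Cx3cl1, the 3 most abundant of the 10 genes per kilobase of exon in both Ascl4 groups. Ccl3 was 1.19 CPM in GFP GC and 120.8 CPM in Ascl4 GC, a 101.9-fold ratio (95% counting interval 90.1 to 115.7). Among single cells, the lowest and median levels of Ccl3 were 0 in both GC groups, and the highest was 46.1 CPM in GFP GC and 3635 CPM in Ascl4 GC. The bulk of the cells of both groups therefore overlapped at 0, and the difference lay in 9 of 51 Ascl4 GC cells at 10 CPM or more against 1 of 47 GFP GC cells. Single cells weighed on the GC ratio of Ccl3, whose log2 value of 5.80 was 4.86 without the Ascl4 cell WA052 and 6.66 without the GFP cell WA092.

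In CA1, Ccl3 was 32.3 CPM in GFP cells and 513 CPM in Ascl4 cells, a 15.9-fold ratio (interval 15.5 to 16.2). The medians were 0.25 CPM in GFP CA1 and 0.86 CPM in Ascl4 CA1, the lowest cells of both were at 0, and the highest were 601 and 8659 CPM. It reached 10 CPM in 8 of 46 GFP CA1 cells and in 20 of 45 Ascl4 CA1 cells. The ranges overlapped from 0 up to 601 CPM, and 53.9% of the Ascl4 CA1 reads of Ccl3 came from the cell WA226. Without that cell the log2 ratio of Ccl3 was 2.88 in place of 3.95.

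Of the 9 chemokines other than Cx3cl1, Ccl4 reached 10 CPM in the most Ascl4 CA1 cells. In summed reads of granule cells it was 29.2 CPM with GFP and 301.3 CPM with Ascl4, and in CA1 cells 94.5 CPM and 1081 CPM, ratios of 10.3-fold in GC (interval 10.04 to 10.6) and 11.4-fold in CA1 (interval 11.3 to 11.6). In GFP CA1 the cells ran from 0 through a median of 1.47 to 2609 CPM, and in Ascl4 CA1 from 0.14 through a median of 193.4 to 16906 CPM. The Ascl4 CA1 group was the only group whose median cell was above 10 CPM for any of the 9 chemokines other than Cx3cl1. Ccl4 reached 10 CPM in 33 of 45 Ascl4 CA1 cells, 73.3% (exact binomial interval 58.1 to 85.4%), and in 13 of 46 GFP CA1 cells, 28.3% (15.99 to 43.5%). Without WA226 the log2 ratio of Ccl4 in CA1 was 2.55 in place of 3.50, and without WA052 that in GC was 2.69 in place of 3.32.

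In granule cells the median cell had 0.26 CPM of Ccl4 with GFP and 0.18 CPM with Ascl4, so the median and the summed reads pointed in opposite directions. The lowest cells of both GC groups were at 0 and the highest at 472 and 6758 CPM. The cells at 10 CPM or more were 6 of 47 and 14 of 51, and these few cells carried the higher sum of Ascl4 GC. Per kilobase of exon, Ccl4 was at 1638 CPM in Ascl4 CA1, above Cx3cl1 at 230.5, whereas in GFP CA1 Ccl4 was at 143 and Cx3cl1 at 161.4.

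Ccl5, a ligand that attracts T cells, was close to absent from control cells. It was 2.19 CPM in GFP GC, where 95.3% of its reads came from 1 cell at 202.8 CPM, and 0.11 CPM (28 reads) in GFP CA1, where the highest cell had 1.90 CPM. In Ascl4 GC it was 51.0 CPM, with cells from 0 through a median of 0 to 941 CPM and 10 of 51 at 10 CPM or more. In Ascl4 CA1 it was 192.3 CPM, with cells from 0 through a median of 0.18 to 3109 CPM and 13 of 45 at 10 CPM or more. The ratios were 23.3-fold in GC (interval 21.3 to 25.6) and 1715-fold in CA1 (interval 1186 to 2581), the latter resting on the 28 control reads. The log2 ratio of Ccl5 was 5.56 in place of 4.03 in GC without the GFP cell WA078, and 6.45 in place of 7.44 in CA1 without WA226. No GFP CA1 cell of 46 reached 10 CPM, which by the exact binomial interval allows a share of up to 7.71%, and the Ascl4 CA1 cells above 1.90 CPM had no counterpart among these controls.

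Ccl2 and Ccl12, ligands of Ccr2 that attract monocytes, were present in a few control cells and in more Ascl4 cells. Ccl2 was 14.8 CPM in GFP GC and 41.8 CPM in Ascl4 GC, a 2.83-fold ratio (interval 2.72 to 2.94). The cells of Ccl2 ran from 0 through a median of 0 to 626 CPM in GFP GC and from 0 through 0.11 to 580 CPM in Ascl4 GC. Its highest cell was thus a control, and the groups overlapped over the whole range, with 3 of 47 against 13 of 51 cells at 10 CPM or more. Without that control cell, WA009, the log2 ratio of Ccl2 in GC was 2.56 in place of 1.44.

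In CA1, Ccl2 was 10.1 CPM with GFP and 53.6 CPM with Ascl4, a 5.31-fold ratio (interval 5.09 to 5.55). The medians were 0 in both CA1 groups and the highest cells 218.3 and 686 CPM, with 2 of 46 and 12 of 45 cells at 10 CPM or more. Leaving out the 3 cells of each group with the most chemokine reads left a log2 ratio of 1.24 in place of 2.30, while leaving out 1 cell gave 1.70 without the Ascl4 cell WA177 and 3.46 without the GFP cell WA196.

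Ccl12 was 5.24 CPM with GFP and 39.5 CPM with Ascl4 in granule cells, and 7.99 and 75.5 CPM in CA1 cells. The ratios were 7.54-fold in GC (interval 7.10 to 8.03) and 9.45-fold in CA1 (interval 9.02 to 9.91). Its median cell was at 0 in both GC groups and in GFP CA1, and at 0.13 CPM in Ascl4 CA1, and the highest cells were 121.6 and 905 CPM in the control and Ascl4 granule cells and 458 and 869 CPM in the CA1 cells. Ccl12 reached 10 CPM in 2 of 47 and 10 of 51 granule cells and in 5 of 46 and 20 of 45 CA1 cells, so a larger share of cells carried it in both Ascl4 groups while the ranges overlapped from 0 to 121.6 CPM in GC and to 458 CPM in CA1. In GC the log2 ratio of Ccl12, 2.70, was 2.07 without WA052, 3.32 without the GFP cell WA091 and 3.59 without the GFP cell WA094.

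Cxcl9 and Cxcl10, the interferon-induced ligands of Cxcr3, were the rarest of the set. Cxcl9 had no read in either GFP group, 792 reads (2.70 CPM) in Ascl4 GC and 37 reads (0.17 CPM) in Ascl4 CA1. Against a floor of 3 reads over the control group, it was 193.7-fold higher in Ascl4 GC and 14.4-fold higher in Ascl4 CA1. The lower limits of the exact counting intervals of these ratios were 157.2-fold and 11.1-fold. Its median was 0 in all groups, and only the Ascl4 GC cells WA119 at 95.4 CPM and WA120 at 53.0 CPM reached 10 CPM.

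Cxcl10 was 0.23 CPM in GFP GC and 1.86 CPM in Ascl4 GC, with highest cells of 8.04 and 84.3 CPM, and 2 Ascl4 GC cells, again WA119 and WA120, at 10 CPM or more. These 2 cells are among the 4 Ascl4 GC cells with over 12000 detected genes, and without those 4 cells the log2 ratio was 0.02 for Cxcl9 and -0.29 for Cxcl10 in GC. Without WA119 alone the log2 ratio of Cxcl9 was 1.01 in place of 1.89, and without WA120 alone that of Cxcl10 was 0.12 in place of 1.22. The 10 oligodendrocyte markers summed to 64027 CPM in WA119 and 60870 CPM in WA120, against a median of 44.7 CPM over Ascl4 GC cells, and WA119 had the lowest Ascl4 level of its group. The part of these markers in the result was not tested. In CA1, Cxcl10 had 1 read in GFP cells and 3648 reads (17.03 CPM) in Ascl4 cells, a ratio of 4251 with a counting interval of 763 to 167968. It reached 10 CPM in 4 of 45 Ascl4 CA1 cells, the highest at 256 CPM, and the median was 0. Another cell, WA125 at 0.60 CPM, also lay above the highest GFP CA1 cell, at 0.41 CPM, and the other 40 were within the range of the controls. Without WA226 the log2 ratio of Cxcl10 in CA1 was 3.52 in place of 4.17.

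Cxcl13, which attracts B cells through Cxcr5, had the largest or second largest log2 ratio of the set in both cell types while being carried by few cells. It was 0.25 CPM in GFP GC and 97.1 CPM in Ascl4 GC, with highest cells of 7.67 and 2876 CPM and 0 of 47 against 5 of 51 cells at 10 CPM or more. In GFP CA1 it had 7 reads (0.03 CPM) and in Ascl4 CA1 it was 150.4 CPM, with highest cells of 0.54 and 4414 CPM and 0 of 46 against 3 of 45 cells. All 4 medians were 0. The cell WA032 held 68.9% of the Ascl4 GC reads and the cell WA226 held 93.8% of the Ascl4 CA1 reads. Without WA226 the log2 ratio of Cxcl13 in CA1 was 3.38 in place of 7.20, and without WA032 that in GC was 4.68 in place of 6.30.

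Cxcl16, a membrane-bound ligand of Cxcr6, was 0.06 CPM (13 reads) in GFP GC and 46.7 CPM in Ascl4 GC, with highest cells of 1.39 and 754 CPM. In CA1 it was 7.07 CPM with GFP and 60.9 CPM with Ascl4, an 8.62-fold ratio (interval 8.20 to 9.06), with highest cells of 472 and 1063 CPM. Its median was 0 in all groups, and 0 of 47, 7 of 51, 2 of 46 and 7 of 45 cells reached 10 CPM. The GC groups did not overlap above 1.39 CPM, whereas the CA1 groups overlapped up to 472 CPM. In CA1 the log2 ratio of Cxcl16, 2.94, was 1.84 without WA226 and 4.16 without the GFP cell WA208. Cxcl16 lies antisense to Zmynd15, with which 16.9% of its 50-base windows are shared, and 14 of the 16 cells with Cxcl16 at 10 CPM also had Zmynd15 there. No source used here says whether the counting used strand, so reads of the 2 genes cannot be told apart.

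Cx3cl1, the ligand of the microglial receptor Cx3cr1, differed from the rest in that it was read in every cell. It reached 10 CPM in 36 of 47 GFP GC, 43 of 51 Ascl4 GC, 39 of 46 GFP CA1 and 42 of 45 Ascl4 CA1 cells. In summed reads it was 700.0 CPM with GFP and 747 CPM with Ascl4 in granule cells, and 634 and 906 CPM in CA1 cells. Single cells ran from 1.09 through a median of 385 to 2061 CPM in GFP GC and from 0.51 through 566 to 2504 CPM in Ascl4 GC. In CA1 they ran from 0.72 through 638 to 1578 CPM with GFP and from 0.60 through 492 to 2971 CPM with Ascl4. All 4 groups overlapped over nearly the whole range, and by medians the order was GFP CA1, Ascl4 GC, Ascl4 CA1 and GFP GC, with interquartile ranges that overlapped between all neighbours. The ratios were 1.07-fold in GC and 1.43-fold in CA1, and in CA1 the sum and the median pointed in opposite directions.

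**Figure D2:**
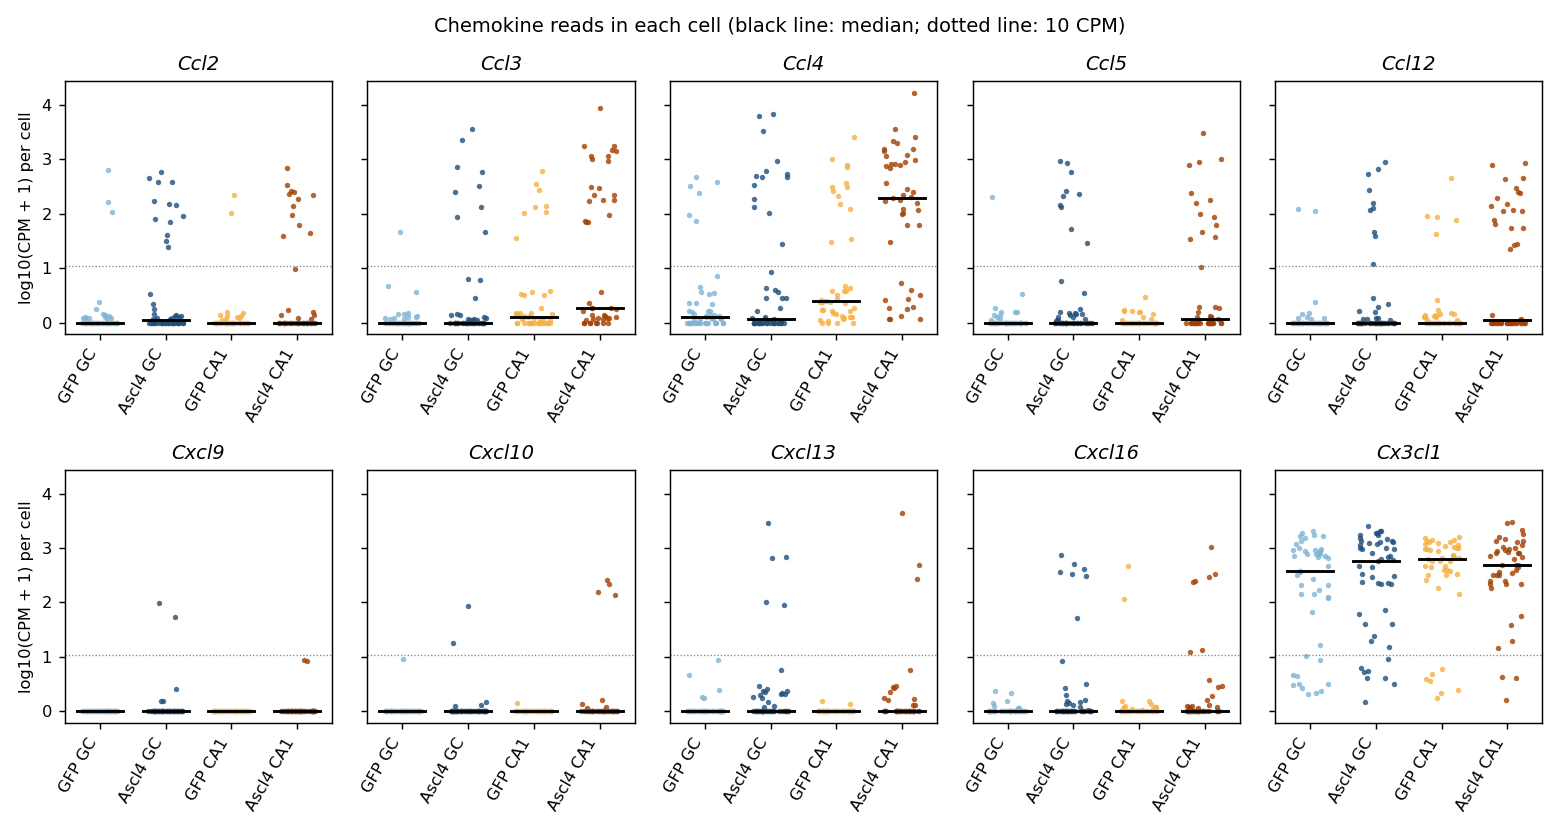
Level of each chemokine in every cell, as log10 of CPM plus 1 (vertical axis), by group (horizontal axis); the black line is the median and the dotted line 10 CPM. Cells at 10 CPM or more of the 9 chemokines other than Cx3cl1 stand apart from the cells near 0, and only Ccl4 in Ascl4 CA1 has a median above 10 CPM.

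The levels of the 9 chemokines other than Cx3cl1 fell into separate ranges. Of their values in single cells, 1122 were 0 and 352 were above 0 and under 10 CPM. A further 12 lay from 10 to 30 CPM and the rest at 30 CPM or more, so the threshold of 10 CPM falls in a sparsely filled stretch. The low values were not evenly spread over the order of cells. Among Ascl4 CA1 cells under 10 CPM, 8 of the 15 numbered within 10 of WA226 held a Cxcl13 read, against 2 of the 27 others. For Ccl5 the same counts were 7 of 9 and 4 of 23. Among Ascl4 GC cells, 11 of 20 near WA032 and 4 of 26 others held a Cxcl13 read under 10 CPM. In Ascl4 CA1, Ccl12 showed the opposite, with 0 of 5 cells near its highest cell and 3 of 20 others. The cause was not tested, and shares of cells with 1 read are given no weight here.

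The control groups were also set side by side. Of 7 chemokines with at least 1 CPM in GFP GC or GFP CA1, 3 were at least 2-fold higher in CA1 (Ccl3, Ccl4 and Cxcl16), beside 26.7% of 13480 genes, and 1 was 2-fold lower (Ccl5), beside 19.2%. By share of cells, 2 of the 7 were at least 10 points higher in CA1, beside 25.4% of all genes, and none 10 points lower, beside 5.8%. Ccl3 was 27.2-fold higher (interval 24.04 to 30.97) and Ccl4 3.23-fold higher (interval 3.14 to 3.32). Within the title numbers above 60 for GC and above 160 for CA1, the log2 ratio of Ccl4 was -0.20 in place of 1.66, so its direction was not kept there. Without the GFP GC cell WA078 the log2 ratio of Ccl5 was 0.0114 in place of -1.52, so that its lower level in CA1 rested on 1 cell. The log2 ratio of Ccl3, 3.93, was 4.79 without WA092, and that of Cxcl16, 2.93, was 1.70 without WA208. That of Ccl2, -0.51, was 0.62 without WA009 and -1.67 without WA196, and that of Ccl12, 0.53, was 1.15 without WA091 and 1.42 without WA094. The microglia markers were also higher in GFP CA1, at 2517 CPM summed over 20 genes against 877 CPM in GFP GC, and their part in the result was not tested.

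Counted cell by cell, at least 1 of the 9 chemokines reached 10 CPM in 9 of 47 GFP GC cells (19.1%, exact binomial interval 9.15 to 33.3%) and in 21 of 51 Ascl4 GC cells (41.2%, 27.6 to 55.8%). In CA1 the counts were 17 of 46 GFP cells (36.96%, 23.2 to 52.5%) and 37 of 45 Ascl4 cells (82.2%, 67.9 to 92%). Cells with 3 or more of the 9 were 1 and 11 among control and Ascl4 granule cells and 3 and 21 among control and Ascl4 CA1 cells. No control cell held more than 3, while WA119 and WA120 among Ascl4 GC and WA226 among Ascl4 CA1 held 8. The summed level of the 9 had a median of 0.94, 3.34, 2.99 and 421 CPM over the cells of these groups, named in that order, and a highest cell of 679, 12778, 2966 and 35010 CPM.

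**Figure D3:**
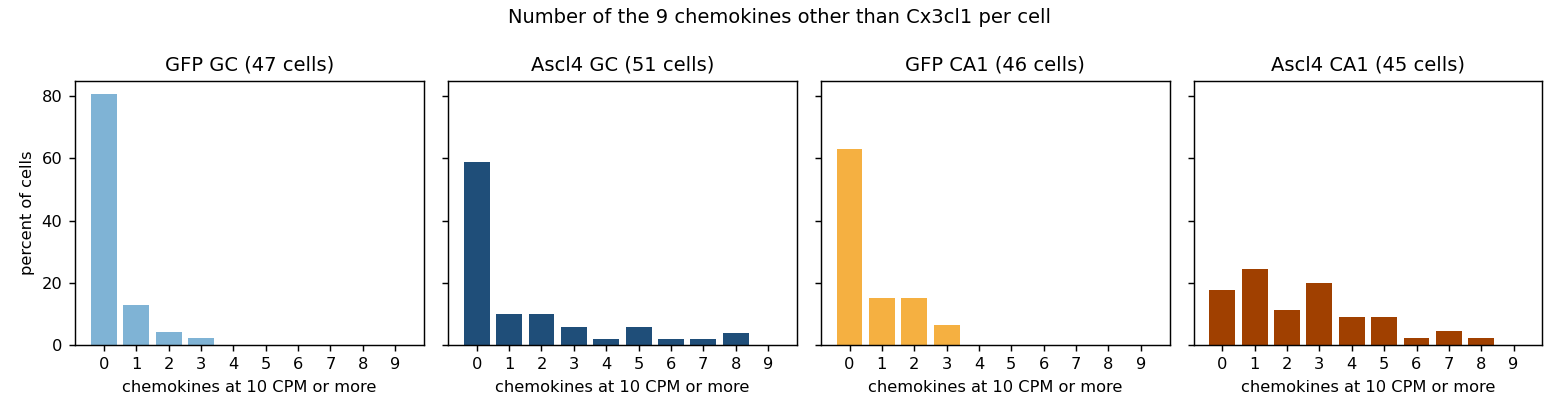
Percent of cells (vertical axis) that hold 0 to 9 of the 9 chemokines other than Cx3cl1 at 10 CPM or more (horizontal axis), with 1 panel for each group. GFP cells hold at most 3, Ascl4 cells up to 8, and 37 of 45 Ascl4 CA1 cells hold at least 1.

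The chemokines met in the same cells. Of the 38 cells with Ccl3 at 10 CPM, 35 also held Ccl4, out of 66 cells with Ccl4. Ccl12 shared 32 of its 37 cells with Ccl4, Cxcl16 shared 15 of 16, and all 6 cells with Cxcl10 held Ccl2, Ccl3 and Ccl4. Ccl2 shared 22 of its 30 cells with Ccl4 and 15 with Ccl12, the nearest to it of the 10 genes on the chromosome. In GFP cells alone, Ccl3 shared 7 of its 9 cells with Ccl4, and Ccl12 shared 6 of 7. Ccl2 there shared 2 of 5 with Ccl4 and 1 with Ccl12, and Ccl3 shared 1 of 9 with Ccl12. The pooled counts mix groups that differ in how often each gene reached 10 CPM. A single cell held a large part of the reads, with 52.2% of the reads of the 9 genes in Ascl4 CA1 coming from WA226, 29.7% in Ascl4 GC from WA052, 21.5% in GFP CA1 from WA157 and 22.96% in GFP GC from WA094.

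**Figure D4:**
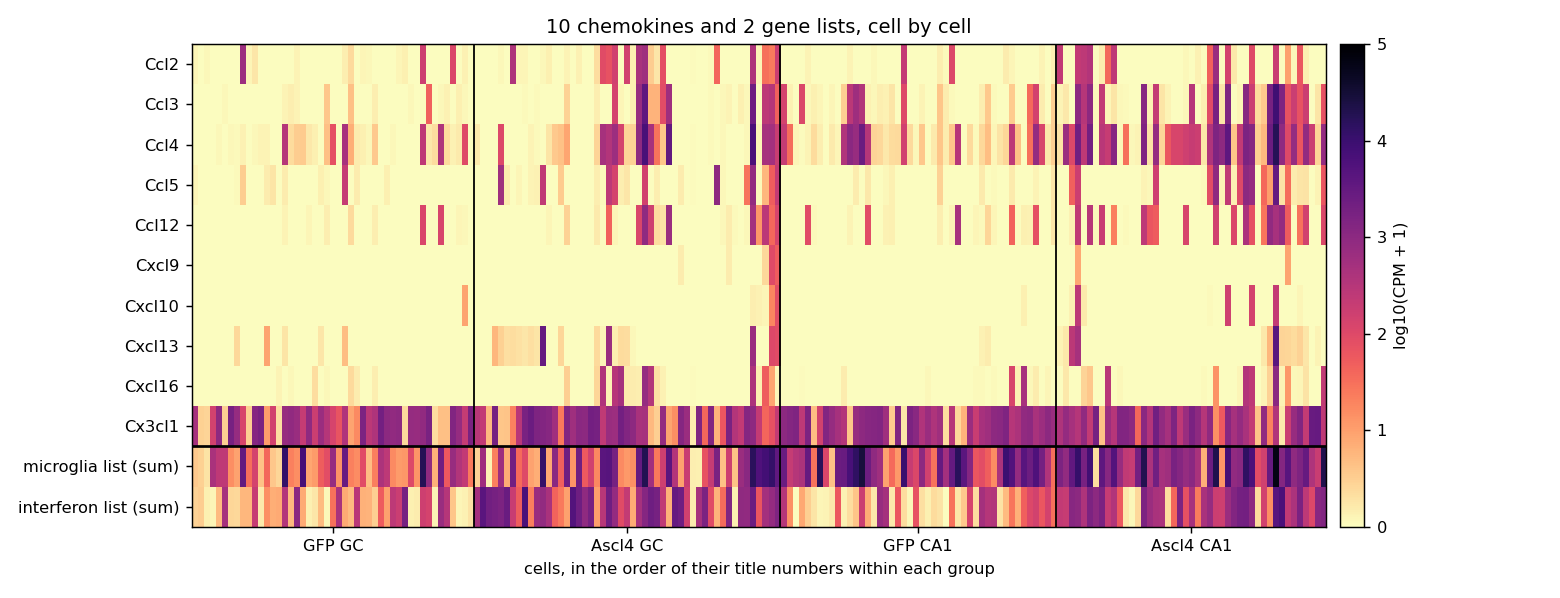
Level of each chemokine and of the summed microglia and interferon lists (rows) in every cell (columns, in order of title number within each group), with the colour giving log10 of CPM plus 1. Cx3cl1 is read in every column, and the other chemokines come together in columns where the microglia list is high.

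Reads of microglial genes moved with the chemokines. The summed level of 20 microglia and macrophage markers was 877 CPM with GFP and 1922 CPM with Ascl4 in granule cells and 2517 and 5211 CPM in CA1 cells, with C1qb, Ctss, C1qc and Tyrobp among its most abundant genes. All 20 markers had reads in every group, and the range over cells ran from 0.96 to 18069, from 0.26 to 18481, from 3.27 to 28142 and from 1.15 to 66006 CPM in that order. Of the 20, 13 were at least 2-fold higher with Ascl4 in GC and none lower, beside 22.5% higher and 22% lower over all genes. In CA1, 10 were higher and 1 lower, beside 21.1% and 17.3%. In the cell WA226, which topped Ccl3, Ccl4, Ccl5, Cxcl13 and Cxcl16, the microglia list was at 66006 CPM and the 10 neuronal markers at 870 CPM, against a median of 6281 CPM over Ascl4 CA1 cells.

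Cells in which at least 3 of the microglia genes reached 10 CPM numbered 9 of 47 control and 19 of 51 Ascl4 granule cells and 26 of 46 control and 37 of 45 Ascl4 CA1 cells. Of these, 9, 17, 16 and 34 held at least 1 of the 9 chemokines. Of the 38, 32, 20 and 8 cells under 3 microglia genes, 0, 4, 1 and 3 did. Where no microglia gene reached 10 CPM, chemokines were found in 0 of 21 control and 3 of 19 Ascl4 granule cells and in 0 of 4 control and 1 of 3 Ascl4 CA1 cells. The rank correlation over cells of the summed chemokine and microglia levels was 0.47, 0.64, 0.58 and 0.78 in the 4 groups. It rested on 47, 51, 46 and 45 cells, which differ in depth and are not replicates. For Cx3cl1 the correlation with the microglia level was 0.23, -0.13, -0.18 and -0.34. With the summed level of the 10 neuronal markers, the summed chemokines had a rank correlation of -0.08, -0.08, 0.15 and -0.59. That of Cx3cl1 was 0.41, 0.11, 0.48 and 0.55. The part of neuronal RNA in the chemokine levels was not tested.

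Chemokine and microglial reads were also set side by side within each group. For every 100 reads of the 20 microglia genes there were 6.07 reads of the 9 chemokines with GFP and 36.6 with Ascl4 in granule cells, and 6.04 and 41.1 in CA1 cells. Without the 3 cells of each group with the most chemokine reads the values were 5.29, 23.2, 4.32 and 31.1. Within the first run of title numbers they were 12.4, 45.5, 6.71 and 30.6, and within the second 5.50, 25.6, 5.05 and 44.3. The sum was the higher one in the Ascl4 group of each of these pairs. Ccl2 went the other way in the first GC run, at 12.0005 with GFP and 3.04 with Ascl4, and in the second CA1 run, at 0.993 and 0.855. The part of microglial RNA in the chemokine differences was not tested.

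**Figure D5:**
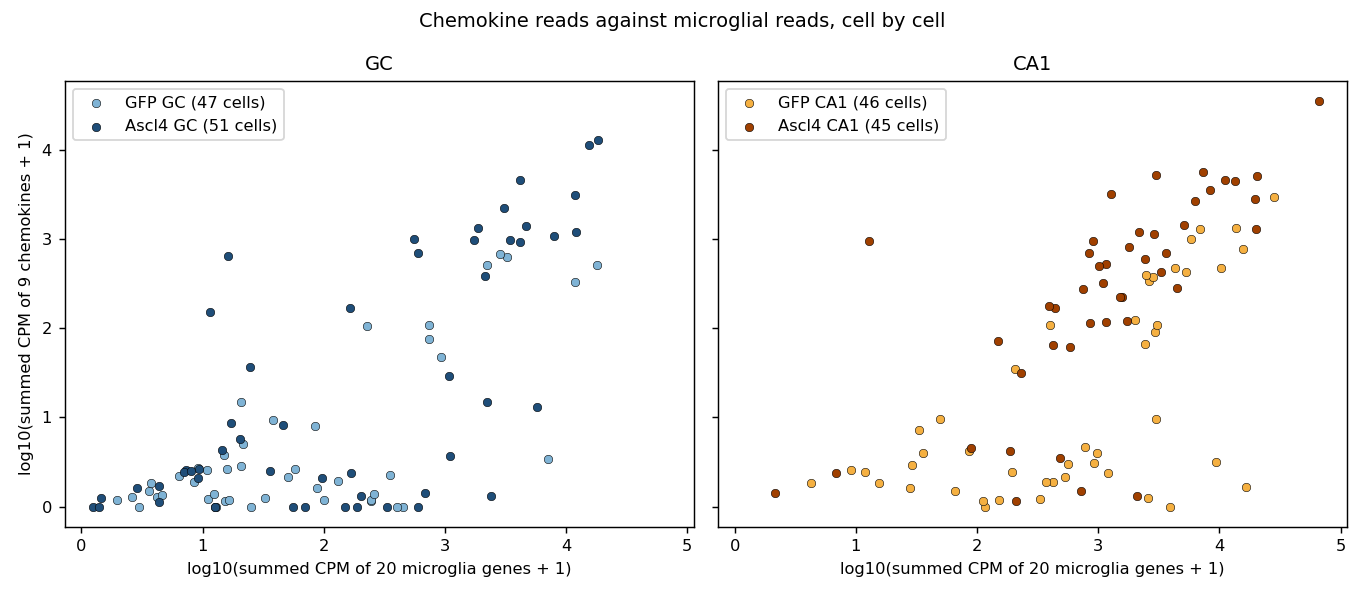
Summed level of the 9 chemokines (vertical axis) against the summed level of 20 microglia genes (horizontal axis) in each cell, both as log10 of CPM plus 1, for GC (left) and CA1 (right). Cells with many chemokine reads mostly have many microglial reads, and the highest cell of both sums, at 35010 and 66006 CPM, is in Ascl4 CA1.

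Of 18 T and NK cell genes, 5 reached 1 CPM in the CA1 comparison. Of these, 4 were 2-fold higher with Ascl4 and 1 lower, beside 21.1% and 17.3% of all genes. Lck was 6.11 CPM in GFP CA1 and 15.1 CPM in Ascl4 CA1, and Trac was 3.25 and 11.6 CPM, with both under 1 CPM in the GC groups. Cd3e was the 1 lower gene, at 2.92 CPM in GFP CA1 and under 1 CPM in Ascl4 CA1. Nkg7 and Cd2 had no read in any group, and Ptprc, shared by all leukocytes, reached 37.8 CPM in Ascl4 CA1 and 4.54 CPM in GFP CA1. The summed level of the list was 2.29, 31.7, 34.8 and 116.6 CPM, of which Cd52, also made by myeloid cells, gave 2.24, 31.1, 17.7 and 51.1 CPM. The B cell list was carried by Ighm, at 37.6, 1378, 57.6 and 116.7 CPM. Nearly all of the Ascl4 GC level came from the cell WA119, which also held Cxcl9, Cxcl10 and Cxcl13. Its B cell list summed to 76420 CPM, against 238.3 CPM in the next highest Ascl4 GC cell, WA052, and a median of 0. The part of these genes in the result was not tested.

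The labels give no batch, but title numbers run in stretches of 1 group each. With GC cells split at number 60 and CA1 cells at 160, Ccl4 was higher with Ascl4 in both runs, by log2 8.34 and 2.41 in GC and 1.25 and 5.33 in CA1. Ccl3 differed by log2 1.00 in the first CA1 run and 6.56 in the second. In the first run 9 of 15 GFP CA1 cells held at least 1 of the 9 chemokines, against 8 of 31 in the second, while in Ascl4 CA1 13 of 17 and 24 of 28 did. In granule cells 1 of 15 and 8 of 32 GFP cells and 14 of 33 and 7 of 18 Ascl4 cells did. The count of chemokines at least 2-fold higher with Ascl4 was 7 and 9 in GC and 7 and 8 in CA1, beside 36.5 and 24.9% of all genes in GC and 33.2 and 23.9% in CA1. Cx3cl1 pointed in opposite directions in GC, with log2 ratios of 0.74 in the first run and -0.50 in the second.

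The receptors were compared next, beginning with that of Cx3cl1. Cx3cr1 was 0.20, 11.9, 30.9 and 40.7 CPM, with the groups in the order used for the microglia list, of which it is a member, and reached 10 CPM in 0, 6, 9 and 11 cells. Ccr1 was at most 4.15 CPM, in GFP CA1 and almost all from 1 cell, and Ccr2 at most 1.03 CPM. Ccr3, Cxcr3, Cxcr5 and Cxcr6 stayed under 1 CPM in every group. The decoy receptor Ackr1 was 19.5, 21.1, 10.48 and 6.63 CPM, and Ackr2 was at most 5.08 CPM. Of 23 receptors, 6 reached 1 CPM in the GC comparison, with 3 higher and 2 lower, and 11 in the CA1 comparison, with 3 higher and 5 lower. Beside these and the list counts that follow stand 22.5% higher and 22% lower over all genes in GC, and 21.1% and 17.3% in CA1. The receptor-like Ccrl2 was 6.31 CPM with GFP and 65.6 CPM with Ascl4 in CA1 cells.

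Among 29 other chemokine ligands found in the table, 11 reached 1 CPM in each of the Ascl4 comparisons, with 4 higher and 3 lower in GC and 5 higher and 2 lower in CA1. Ccl7, which lies in the Ccl2 cluster and also binds Ccr2, was 0.14, 15.7, 2.68 and 86.4 CPM, and WA226 gave 84.2% of its Ascl4 CA1 reads. Ccl6 was 4.53, 13.3, 27.4 and 41.8 CPM and Ccl9 7.90, 6.10, 7.20 and 35.1 CPM. Ccl27a, read in many cells of all groups, was 139.5, 107.1, 72.6 and 75.2 CPM. Cxcl12 went the other way in GC, with 128.3 CPM in GFP GC and 0.17 CPM in Ascl4 GC, and was under 1 CPM in both CA1 groups.

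Genes that act upstream of chemokines were also compared. Of 18 inducers with at least 1 CPM, 11 were 2-fold higher and 4 lower with Ascl4 in GC, and 8 were higher and none lower in CA1. Tnf, a cytokine that activates NF-kB, was 0.01, 14.7, 1.73 and 41.1 CPM, and Nfkbia, the inhibitor that NF-kB itself induces, was 34.4, 138.04, 149.8 and 234.8 CPM. Ifng, the ligand that drives Cxcl9 most strongly, had no read outside 1 in GFP CA1, and Ifnb1 had 71 reads, all in the cell WA119. Irf7, a transcription factor of interferon signalling, was 0.24, 35.5, 2.02 and 64.9 CPM. Of 22 tested genes of an interferon list, 20 were higher in each comparison, with none lower in GC and 1 lower in CA1.

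The interferon list was spread over other cells than the chemokines in part. Cells with at least 3 of its genes at 10 CPM made up 25 of the 51 granule cells and 23 of the 45 CA1 cells given Ascl4, and there were none among the controls. Of these, 13 and 22 held at least 1 of the 9 chemokines, against 8 of 26 and 15 of 22 Ascl4 cells below that level. The rank correlation between the summed chemokines and the interferon list was -0.14 in Ascl4 GC and 0.41 in Ascl4 CA1. Cxcl9, Cxcl10 and Cxcl13 were at 10 CPM only in cells with 3 or more interferon genes, all of which also had 3 or more microglia genes at 10 CPM, in 2, 2 and 5 Ascl4 GC cells and 0, 4 and 3 Ascl4 CA1 cells. The level of Ascl4 itself had a rank correlation with the summed chemokines of -0.06 in Ascl4 GC and -0.04 in Ascl4 CA1. Single chemokines differed from the sum. In Ascl4 GC the value was -0.45 for Cxcl10 and -0.40 for Cxcl9, each read in 5 cells, and from -0.21 to 0.09 for the others. In Ascl4 CA1 it was 0.42 for Cx3cl1 and from -0.26 to 0.14 for the others.

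The genes nearest in pattern were sought over all cells by Pearson r of log2(CPM + 1), among 11333 genes, for the 8 chemokines that reached 10 CPM in at least 8 cells. Ccl3 and Ccl4 were near each other (r = 0.74) and near Cd83, a surface protein of activated myeloid cells (0.71 and 0.77), and the cytokine gene Il1a (0.67 and 0.72). Ccl3 was further near Ccl12 (0.64) and Litaf (0.63), and Ccl4 near the microglial genes C1qa (0.70) and Ctss (0.67). Ccl12 was nearest Ccl4 (0.65), Ccl3 (0.64), Il1a (0.59), C1qc (0.58) and Bcl2a1b (0.56). Ccl2 was nearest Ly86, Tyrobp, Spi1, Ctsz and Arhgdib, with r from 0.49 to 0.52. The genes named so far are mostly known from microglia and other myeloid cells. Over the GFP cells alone, r of Ccl2 with its 5 genes was 0.11, 0.39, 0.08, 0.11 and 0.39. There, r of Ccl3 was 0.06 with Ccl12 and 0.57 with Ccl4.

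Ccl5 was nearest H2-Q1 (0.70), H2-K1 (0.69), H2-Q4 (0.66) and H2-D1 (0.66) of MHC class I and H2-Aa (0.65) of MHC class II. The products of these genes present antigen, and their near-identical copies may share reads. Over the 93 GFP cells alone the same values were -0.02, 0.13, -0.01, 0.04 and 0.16, with Ccl5 at 10 CPM in 1 of these cells. Cxcl13 was nearest H2-Aa (0.70), Lgals3 (0.58), Ccl5 (0.58), Slamf8 (0.55) and Ly6a (0.55), over 8 cells at 10 CPM. Cxcl16 was nearest its antisense neighbour Zmynd15 (0.97), then Igsf6 (0.64), Cd48 (0.63), Spi1 (0.59) and Ly86 (0.57). Among the genes nearest Cx3cl1 were Ndfip1 (0.45), Ttc3 (0.42), Hsp90ab1 (0.41) and Zmynd11 (0.40), none of them on the microglia list. The median r with the microglia list was 0.51 for Ccl4, 0.45 for Ccl3, 0.43 for Ccl12 and 0.41 for Ccl5. It was 0.37 for Ccl2, 0.35 for Cxcl16, 0.29 for Cxcl13 and 0.03 for Cx3cl1. The r values pool cells that differ in depth and group, so they describe this set of libraries.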

How the data were processed

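Libraries of 189 single neurons passing the authors' quality control, of 228 sequenced, were used; the series' text states more kept cells (53, 52, 48 and 51) than the table holds (47, 51, 46 and 45). Reads were aligned with STAR and counted with HTSeq on GRCm38.p4, per the submitters' processing notes, and gene counts were deposited by the authors; no source used here gives the library kit or the strand. The authors' second table holds a signal, counts scaled by 1 factor per cell (ratio constant to 3.04e-16), used as an alternative only. The 92 spike-in rows (4 reads) were left out. Counts were summed per group and given as CPM, and log2 ratios used a pseudocount of 1 CPM. Poisson and Clopper-Pearson 95% intervals were computed with Python 3.11.15 and scipy 1.17.1. No test was run: cells are not replicates and each group is 1 sample. edgeR 4.0.16 and DESeq2 1.42.0 served only for scaling alternatives. Ratios were tested on simulated data. Overlaps of genes come from GENCODE M21. Named genes were all 10 chemokines, their receptors, listed ligands and inducers with at least 5 CPM in 1 group, the 5 most correlated genes of each chemokine, and up to 5 genes a marker list; Nkg7, Cd2, Ifng and Ifnb1 were named outside that rule after their values were seen. The chemokines and lists were chosen with earlier results of these data known. Alternatives were other weights of cells, pseudocounts, scalings, runs of title numbers, depth, cell thresholds, the cells without quality control, and, chosen after seeing the data, leaving out cells of over 12000 genes, the 3 cells with most chemokine reads, WA226, or each cell in turn, where values that moved by over 1.5 times are given. A few genes that this rule would name are not reported here.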

Additional observations from a re-analysis of the deposited data

Results flagged for a closer look

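The cells dropped by the authors' quality control, used above only in 1 alternative that took all cells, also held chemokine reads. In the 5 dropped Ascl4 GC cells the 9 chemokines other than Cx3cl1 summed to 517 CPM, above the 245 CPM of the 13 dropped GFP GC cells, of which Ccl3 gave 240.6 CPM. In CA1 the order of the sums was the other way, at 838 CPM in 13 dropped Ascl4 cells and 5104 CPM in 8 dropped GFP cells, whose microglia markers summed to 46712 CPM. By share of cells the order was not reversed in CA1, where 10 of 13 dropped Ascl4 cells and 4 of 8 dropped GFP cells held at least 1 of the 9. In GC these counts were 2 of 5 and 3 of 13.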

How the results depend on the processing

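Over 17 alternatives, the number of chemokines at least 2-fold higher with Ascl4 ranged from 7 to 9 in GC and from 7 to 8 in CA1, and the number higher in GFP CA1 than in GFP GC from 2 to 5, with 5 when the 3 cells of each group with most chemokine reads were left out. Of 289 alternative values of the chemokines that were 2-fold higher with Ascl4, 281 stayed 2-fold higher; the other 8 were Cxcl9 and Cxcl10 in GC and Ccl3 in the first CA1 run (log2 ratio 0.997). The authors' scaled values moved the median log2 ratio of all genes between control groups from 0.11 to -0.12. Of ratios past 2-fold, the direction turned for Cxcl10 in GC without cells of over 12000 genes (log2 ratio -0.29, since both cells that carry it are among those left out) and for Ccl4 between the control groups in the second run of title numbers (-0.20; the cause was not tested), and for Ccl5 between controls without WA078 (0.0114, that cell holding nearly all GFP GC reads of it). Among smaller ratios, Cx3cl1 turned in GC in the second run (-0.50) and between controls under 6 alternatives (0.01 to 0.49), and between controls Ccl2 turned in the second run (0.70), without the 3 cells of most chemokine reads (1.498) and without WA009 (0.62), and Ccl12 in the second run (-0.13). Leaving out each cell in turn was an alternative chosen after seeing the data. It moved the ratios of 8 chemokines in GC, 7 in CA1 and 5 between controls by over 1.5 times. With no minimum of 1 CPM the background was 13.1% in GC, 13% in CA1 and 15.8% between controls, since more unread genes were counted. At 2 CPM, 15 GFP GC cells held at least 1 of the 9 chemokines in place of 9, and at 1 read 41 GFP GC, 42 Ascl4 GC and 44 GFP CA1 cells did. Of 40 genes named by pattern, 22 were named again from Ascl4 cells alone and 21 by Spearman's rho. No paired analysis was possible because the groups share no replicate numbers and each cell is from 1 group. A chemokine at 0 reads could be present at up to 0.0102 to 0.0140 CPM, the floor of 3 reads in a group's summed reads, and dropout in single cells limits all shares of cells.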
